A study of Mus musculus with 2 samples.

Results

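The heat shock chaperones described here are 10 of the 32285 genes in the single-cell tables, namely Hspa1a, Hspa1b, Dnajb1, Hsph1, Hsp90aa1, Hspa8, Hsp90ab1, Hspd1, Hspe1 and Hspa5. They were chosen by symbol, and each symbol matched 1 gene. CD8+ tumor-infiltrating lymphocytes (TIL) were sorted from transplanted B16 F0 melanomas of male C57BL/6J mice aged 16 weeks, and 1 library was made per phenotype. The lean library came from mice on normal chow (NC), and the obese library came from mice on a western diet (WD). The methods give 12 weeks on the diet and tumors taken on day 14. CD8+ cells were enriched with magnetic beads and then sorted by CD8 staining. The number of mice behind each library is not given in the sources used here. With 1 library per phenotype there is no replicate, no test of lean against obese is possible, and diet, mouse and library cannot be told apart. The intervals in brackets are 95% intervals for counting error only.

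Chaperones bind unfolded or newly made proteins and help them fold. In the cytosol, HSP70 proteins pass clients between J-domain partners, nucleotide exchange factors and HSP90, and stress raises the inducible members through heat shock factor, while the constitutive members are made at all times. Mitochondria carry their own folding chamber with its lid, and the endoplasmic reticulum has its own HSP70, which is raised by the unfolded protein response. In T cells the constitutive and mitochondrial chaperones are known to increase on activation and growth.

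The members were grouped by role as inducible (Hspa1a, Hspa1b, Dnajb1, Hsph1 and Hsp90aa1), constitutive cytosolic (Hspa8 and Hsp90ab1), mitochondrial (Hspd1 and Hspe1) and endoplasmic reticulum (Hspa5). In the obese library the inducible genes were on average 0.69 (0.62 to 0.76) higher on the log2 scale, against 0.09 (0.08 to 0.10) for the constitutive pair, 0.15 (0.12 to 0.18) for the mitochondrial pair and 0.25 (0.22 to 0.28) for Hspa5. Most of the inducible mean came from Hspa1a (0.84) and Hspa1b (1.76), with less from Dnajb1 (0.55) and Hsp90aa1 (0.33). Hsph1 (-0.02) had nearly the same level in both libraries. With Hspa1a and Hspa1b summed as 1 gene the mean was 0.53 (0.48 to 0.59). The intervals of both means are too narrow, since the counts of these copies came from few cells. Across the clusters described below, the mean with the copies summed ran from 0.21 (0.09 to 0.34) in effector-like cells to 1.36 in a shallow unnamed cluster. In effector-like cells the constitutive mean was 0.12 and the mitochondrial mean 0.15, so the contrast between classes was small there. The median log2 ratio over the 7064 genes with at least 10 CPM (UMIs per 1000000 UMIs) in 1 library was 0.035. Each transcript is counted once from its 3′ end, so CPM is not scaled to gene length.

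In the GENCODE M21 annotation of GRCm38, the build family of the files (mm10), the inducible genes are Hspa1a (ENSMUSG00000091971) at chr17:34969190-34972156, Hspa1b (ENSMUSG00000090877) at chr17:34956436-34959238, Dnajb1 (ENSMUSG00000005483) at chr8:83608193-83612653, Hsph1 (ENSMUSG00000029657) at chr5:149614287-149636376 and Hsp90aa1 (ENSMUSG00000021270) at chr12:110690605-110702728. The constitutive genes are Hspa8 (ENSMUSG00000015656) at chr9:40800984-40810087 and Hsp90ab1 (ENSMUSG00000023944) at chr17:45567775-45573271. The organelle chaperones are Hspd1 (ENSMUSG00000025980) at chr1:55077835-55088243, Hspe1 (ENSMUSG00000073676) at chr1:55088132-55091307 and Hspa5 (ENSMUSG00000026864) at chr2:34771970-34777547. All are protein-coding, and counts are over whole genes, so no value belongs to a single exon.

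Start-site sequences are shown first, to show how alike the inducible HSP70 copies are and where the searched motifs lie. Promoter windows came from RefSeq (GRCm38.p6) and were found for 7 of the 10 members, not for Hspa8, Hsp90aa1 or Hsp90ab1. The 250 bases before the start site were searched on both strands for a pair of heat shock factor units in either order, GAANNTTC or TTCNNGAA, for 3 such units in a row, GAA and TTC in turn with 2 bases between them, and for the endoplasmic reticulum stress element, CCAAT and CCACG with 9 bases between them. Each match to 3 units also holds matches to a pair. Of 32851 promoter windows, 12.8% held a pair, 0.466% held 3 units and 0.113% held the stress element. The inducible HSP70 genes Hspa1a (chr17:34972157-34972406, minus strand) and Hspa1b (chr17:34959239-34959488, minus strand) lie side by side, and their windows are identical at 247 of 250 bases. Both are printed whole because they show how little separates the copies, and capitals mark the pair of heat shock factor units, which starts 104 bases before the start site in each.
Hspa1a: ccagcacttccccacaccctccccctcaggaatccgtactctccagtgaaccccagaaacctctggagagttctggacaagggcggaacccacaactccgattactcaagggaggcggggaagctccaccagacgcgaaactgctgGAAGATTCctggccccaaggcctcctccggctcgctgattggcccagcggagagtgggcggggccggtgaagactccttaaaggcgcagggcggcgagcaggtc
Hspa1b: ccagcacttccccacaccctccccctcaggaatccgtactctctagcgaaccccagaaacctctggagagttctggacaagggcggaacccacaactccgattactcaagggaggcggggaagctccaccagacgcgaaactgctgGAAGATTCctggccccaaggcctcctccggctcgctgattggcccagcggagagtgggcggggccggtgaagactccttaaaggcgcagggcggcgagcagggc

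The other matches are shown as 30 bases each, to set the heat shock element of the mitochondrial pair beside that of Hsph1 and the stress element of Hspa5, with the matches in capitals. Hspd1 and Hspe1 lie on opposite strands, with starts 111 bases apart in the GENCODE M21 models, in which the genes overlap. The element lies before the Hspe1 start (chr1:55088053-55088082, printed on the Hspe1 strand), with 2 overlapping matches to 3 units. In these models that region is inside Hspd1. The Hspd1 window from chr1:55087883-55088182 also held the element, and the one from chr1:55088194-55088493 held no match. Hsph1 has 1 pair of units at chr5:149636351-149636380 on the minus strand. Hspa5 has 1 stress element at chr2:34772020-34772049 on the plus strand and no pair of heat shock factor units. The Dnajb1 windows held neither motif. A match is a description of the letters and was not tested as a binding site.
Hspe1: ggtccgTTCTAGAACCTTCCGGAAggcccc
Hsph1: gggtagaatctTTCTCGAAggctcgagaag
Hspa5: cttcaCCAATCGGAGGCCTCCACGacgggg

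The tables held 5320 cell barcodes, of which 2456 lean and 2289 obese cells passed the filters of under 7.5% mitochondrial UMIs and over 500 and under 50000 UMIs. Median depth was 7958 UMIs per lean cell and 9103 per obese cell, and 4 barcodes occurred in both libraries. All 7 genes of the CD8 T cell list (Lck, Trac, the CD8 chains and the CD3 chains) were detected in both libraries, with a summed level of 6027 CPM in lean and 5304 CPM in obese. Summed levels in lean and obese were 1.22 and 1.46 CPM for melanoma markers, 23.4 and 22.2 CPM for myeloid markers, 50.04 and 98.4 CPM for B cell markers, 76.1 and 31.0 CPM for NK markers, 5.28 and 5.19 CPM for CD4 and regulatory T cell markers and 517 and 526 CPM for dendritic markers. Red cell markers were at 0 in lean and at 320.5 CPM in obese. A list of 14 immediate early genes, which are known to respond to tissue handling, was 5378 CPM in lean and 7169 CPM in obese.

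Cells were clustered without the chaperone and immediate early genes. Cluster 0 (467 lean and 714 obese cells) was interferon-stimulated-like, led by Ifit3b, Ifit3 and Gzma. Cluster 1 (476 and 584) was proliferating-like, led by Pclaf and Birc5, cluster 2 (572 and 417) was naive or memory-like, with Lef1 and Tcf7 among its leading genes, and cluster 3 (625 and 306) was effector-like, led by Gzmd and Gzme. Cluster 4 (306 and 248) stayed unnamed, since its median depth was 29.0% of the lean and 25.1% of the obese library median and its leading genes were hemoglobin genes and Gm26917. Cluster 5 (10 and 20 cells) was too small for values by library. No cell type that should lack these chaperones was present, so shares of cells with a UMI were not set against such a background.

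Hspa1a and Hspa1b encode the stress-inducible HSP70 and are close to silent in unstressed cells. Hspa1a was 10.6 CPM (9.46 to 11.9) in lean and 19.0 CPM (17.5 to 20.7) in obese, a 1.79-fold difference. Hspa1b was 7.26 CPM (6.30 to 8.34) in lean and 24.6 CPM (22.8 to 26.5) in obese, a 3.39-fold difference. These were the 2 of 10 members at least 1.5-fold higher in obese, against 1.66% of all 7064 genes, and none was 1.5-fold lower, against 1.32%. Hspa1b passed the minimum of 10 CPM through the obese library alone, so it could only be called higher, and Hspa1a was just above the minimum in lean. The copies are near-identical in their coding parts, so counts can be split between them, but their last 500 bases, where 3′ UMI reads fall, shared no 90-base stretch with each other or with any other gene. Summed as 1 gene they were 17.9 CPM in lean and 43.7 CPM in obese, 2.44-fold (2.20 to 2.71) higher in obese. Of the immediate early genes, 13 of 14 were also higher in obese, with a median log2 ratio of 0.48. Among all genes at the minimum of 10 CPM with UMIs in both libraries, 57.7% were higher in obese. The part of the immediate early genes in the result was not tested.

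The other inducible genes were more abundant and differed less. Dnajb1, the J-domain partner of inducible HSP70, was 71.8 CPM in lean and 105 CPM in obese, with a log2 ratio of 0.55 (0.47 to 0.63). Hsp90aa1, the stress-responsive cytosolic HSP90, was 538 CPM in lean and 676 CPM in obese, with a log2 ratio of 0.33 (0.30 to 0.36). Hsph1, the HSP110 nucleotide exchange factor for HSP70, was 46.7 CPM in lean and 45.9 CPM in obese, and its log2 ratio of -0.02 had an interval that held 0 (-0.14 to 0.09). The sign for Hsph1 changed with the weighting, from -0.09 without clusters 4 and 5 to 0.32 with equal weight of clusters.

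Over all cells, constitutive and mitochondrial chaperones differed little between the libraries, and Hspa5 was higher in obese. Hspa8, the constitutive HSP70, was 1633 CPM in lean and 1679 CPM in obese, with a log2 ratio of 0.04 that became -0.0044 with TMM scaling. Hsp90ab1, the constitutive HSP90, was 1846 CPM in lean and 2039.8 CPM in obese, with a log2 ratio of 0.14 (0.13 to 0.16). Hspd1 and Hspe1 encode the mitochondrial HSP60 chamber and its HSP10 lid. Hspd1 was 223 CPM in lean and 249 CPM in obese, and Hspe1 was 403 CPM in lean and 445 CPM in obese, with log2 ratios of 0.15 for each to within 0.01. Hspa5 (BiP), the HSP70 of the endoplasmic reticulum, was 462 CPM in lean and 549.5 CPM in obese, with a log2 ratio of 0.25 (0.22 to 0.28). All 10 members together made up 0.524% of lean UMIs and 0.583% of obese UMIs. For Hspa8, 79.8% of the 90-base stretches in its last 500 bases also occur in other annotated genes, and for Hspe1 36.0%, so the counts of these members are uncertain in both libraries.

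**Figure D1:**
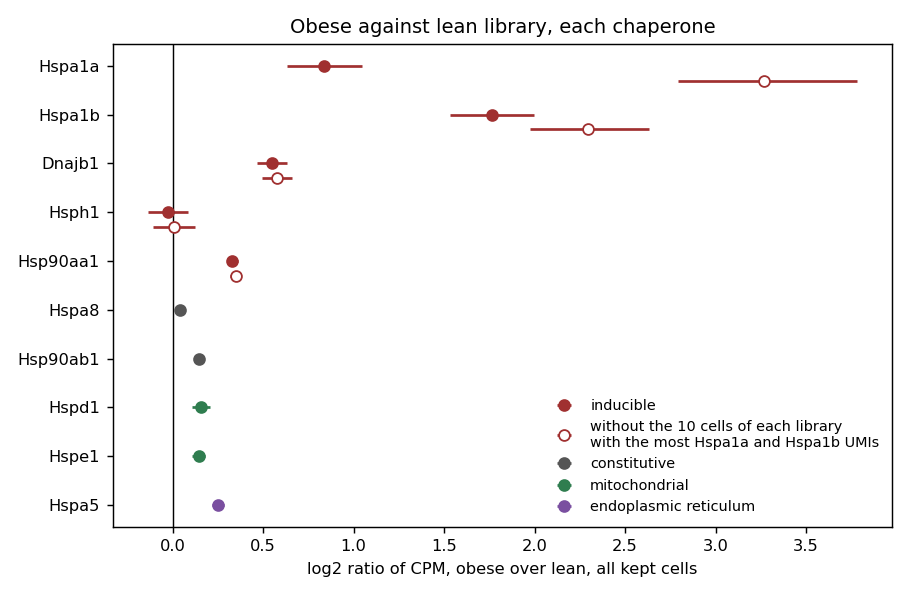
The log2 ratio of CPM (obese over lean, x axis) is plotted for each chaperone over all kept cells, coloured by class, with 95% counting intervals. Filled points are all kept cells, and open points, drawn for the 5 inducible genes, leave out the 10 cells of each library with the most Hspa1a and Hspa1b UMIs, which moved Hspa1a from 0.84 to 3.27 and left Dnajb1, Hsph1 and Hsp90aa1 nearly in place.

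The libraries differed in how Hspa1a and Hspa1b were spread over cells. In lean, 34 of 2456 cells held any Hspa1a UMI (1.38%), 1 cell alone held 79 of the 296 UMIs, and the 10 cells with the most held 87.8%. In obese, 156 of 2289 cells held one (6.82%), the highest cell held 45 of 546 UMIs, and the 10 cells with the most held 33.7%. For Hspa1b, 66 lean cells (2.69%) and 214 obese cells (9.35%) held a UMI, and the 10 cells with the most held 58.4% of lean and 34.1% of obese UMIs. Most lean UMIs thus lay in a few very high cells, while obese UMIs lay in more cells. Of the cells with a UMI of either copy, 54 of 87 in lean and 162 of 311 in obese held exactly 1. Without a background share such cells cannot be told apart from cells with free RNA. For the other 8 members the 10 highest cells held between 2.82% and 6.55% of the UMIs in either library. Counting intervals treat UMIs as independent, so for Hspa1a and Hspa1b they are too narrow.

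Shares were also compared at equal depth, with each cell thinned to 2000 UMIs and the 126 lean and 112 obese cells below that left out. The thinned share of cells with an Hspa1a UMI was 0.644% (0.361 to 1.06) in lean and 2.57% (1.95 to 3.33) in obese. For Hspa1b it was 0.944% (0.593 to 1.43) in lean and 3.08% (2.39 to 3.89) in obese. Dnajb1 was found in 15.1% (13.6 to 16.6) of lean and 20.4% (18.8 to 22.2) of obese cells, and Hsph1 in 8.28% and 8.27%. Hspa8 was found in 92.1% of cells in both libraries. The intervals of the libraries did not overlap for Hspa1a, Hspa1b and Dnajb1. The same held for Hsp90aa1 (57.0% in lean and 65.0% in obese) and Hspa5 (56.7% and 62.7%), so it was not particular to inducible HSP70. Shares for Hsph1 and Hspa8 nearly coincided. The share of all genes without overlap was not measured, so nothing is read from how many members did not overlap.

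**Figure D2:**
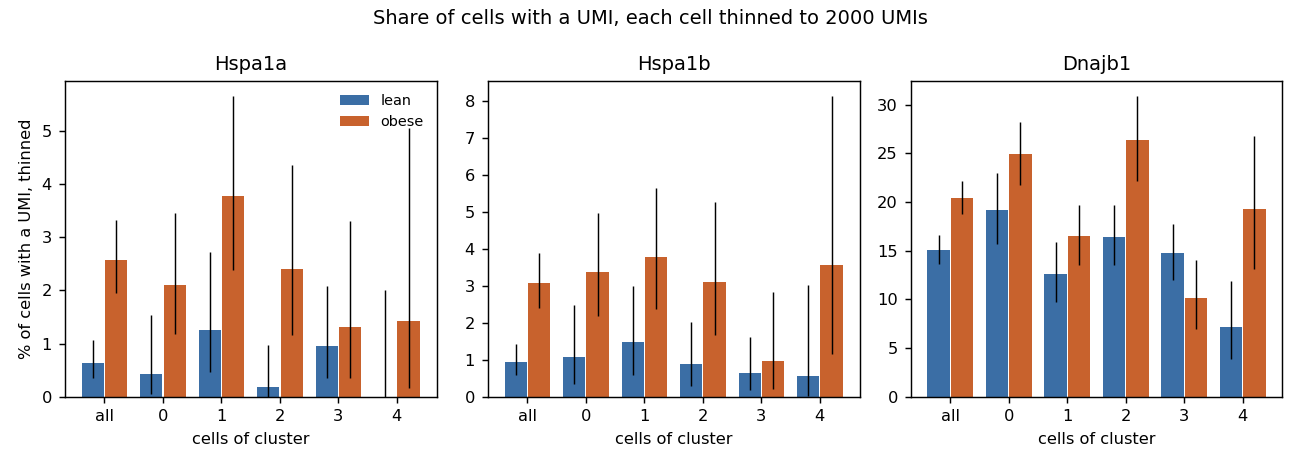
Bars give the percent of cells with at least 1 UMI of Hspa1a, Hspa1b or Dnajb1 after thinning each cell to 2000 UMIs, for all cells and for clusters 0 to 4, in the lean (blue) and obese (orange) library, with exact 95% binomial intervals. The obese bars are higher for Hspa1a and Hspa1b in all cells, and the order for Dnajb1 is the opposite in cluster 3.

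Leaving out the 10 cells of each library with the most Hspa1a and Hspa1b UMIs, an alternative chosen after seeing the data, widened the gap. Hspa1a was then 1.41 CPM (39 UMIs) in lean and 13.6 CPM (387 UMIs) in obese, a log2 ratio of 3.27 (2.79 to 3.78) against 0.84 with all cells. Hspa1b was 3.44 CPM in lean and 16.9 CPM in obese, a log2 ratio of 2.30 (1.98 to 2.63) against 1.76. The inducible mean became 1.30, while the constitutive mean stayed at 0.09 and Hspa5 at 0.25. The cells were chosen by the same UMIs that are compared. Of the summed UMIs of both copies, 134 of 498 were left in lean and 868 of 1253 in obese. A wider gap with the same sign was thus built into this choice, and no support for the direction is drawn from it. The size of the ratio for Hspa1a rested on the highest cells.

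Cells rich in inducible HSP70 were then compared with the other cells of their own library, for the members not used to choose them. Cells with at least 5 Hspa1a and Hspa1b UMIs numbered 16 in lean (0.651%) and 60 in obese (2.62%), and 11 and 37 of them lay in cluster 1. They were deeper than cells with none, at a median of 15417.5 against 7828 UMIs in lean and 17856 against 8749.5 in obese. They also held more of the HSP70 UMIs each in lean, at a mean of 25.1 per cell against 14.3 in obese, so the groups are not matched in HSP70. In lean 6 of 8 other members were at least 1.5-fold higher than in cells with none, against 17.3% of 7522 genes. None of the 8 was 1.5-fold lower, against 19.0%. In obese 1 of 8 was higher (Hsph1), against 5.06% of 7191 genes, and none was lower, against 8.87%.

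Hsph1 was 43.0 CPM in lean cells with no Hspa1a or Hspa1b UMI and 256 CPM (202 to 321) in lean cells with at least 5, while the obese values were 44.2 and 72.4 CPM (58.1 to 89.2). Hsp90aa1 was 514 and 1672 CPM in lean and 662 and 968 CPM in obese. Dnajb1 was 68.7 and 260 CPM (205 to 325) in lean and 100.2 and 142 CPM (122 to 165) in obese. Hspe1 was 386 and 1118 CPM in lean and 432 and 579 CPM in obese. For these 4 genes the separation was wider in lean than in obese. Hspa5 showed the least separation, at 460.4 and 571 CPM in lean and 548 and 520.2 CPM in obese.

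**Figure D3:**
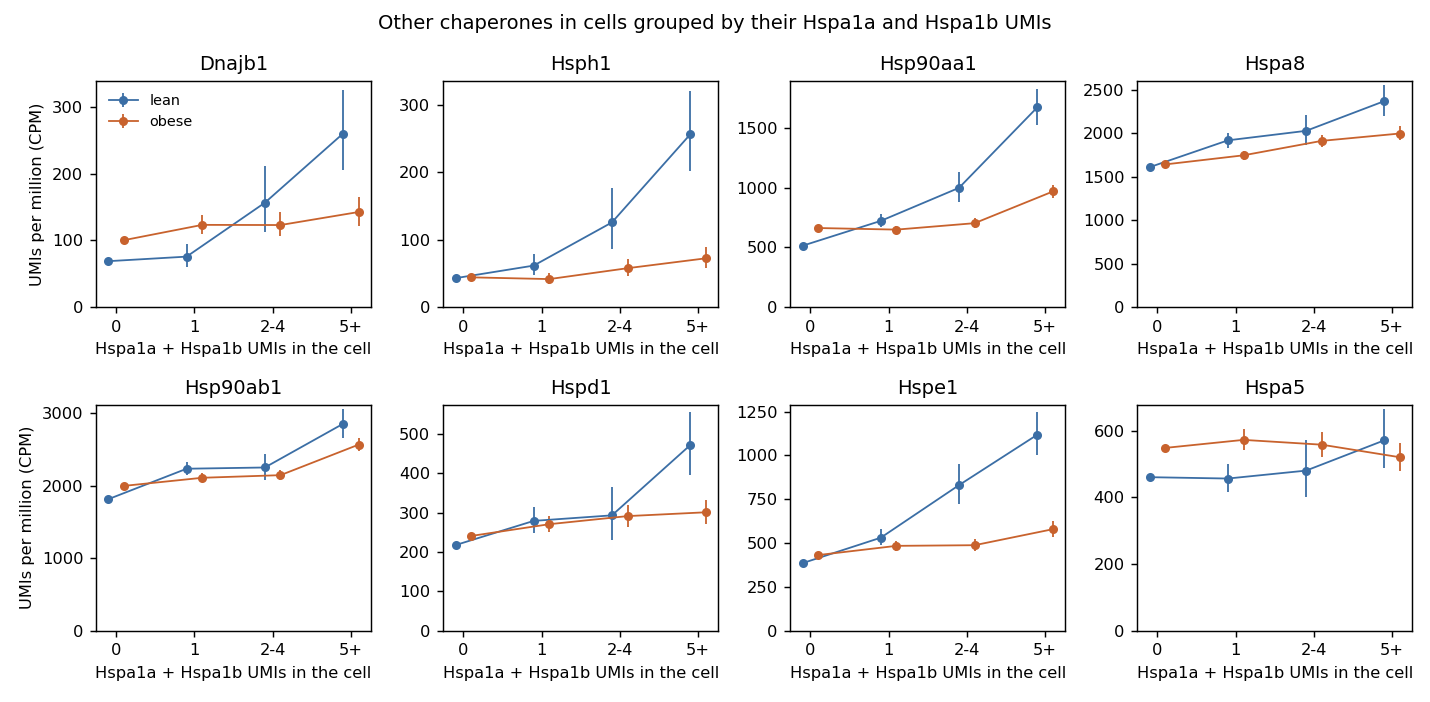
The CPM of 8 chaperones (y axis, from 0) is plotted for cells grouped by their summed Hspa1a and Hspa1b UMIs (0, 1, 2 to 4, 5 or more), with exact Poisson 95% intervals. Lean values (blue) climb with the group for Hsph1, Hsp90aa1, Dnajb1 and Hspe1, obese values (orange) climb less, and Hspa5 is nearly flat.

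Within cluster 1 alone, where depth and cell state are closer, the same order held. The cells with at least 5 were again not matched in HSP70. They held a mean of 28.5 Hspa1a and Hspa1b UMIs per cell in lean and 13.7 in obese, a wider difference than over all cells. Hsph1 was 50.2 CPM in lean cells with none and 169 CPM in the 11 with at least 5, and 49.2 and 70.6 CPM in obese. Hsp90aa1 was 655 and 1433 CPM in lean and 799 and 1002 CPM in obese. Of 8 members, 4 in lean and 0 in obese were at least 1.5-fold higher there, against 15.3% and 4.78% of all genes tested, and none was lower, against 19.9% and 7.17%. The median depth of the cells with at least 5 was 17790 UMIs in lean and 24066 in obese, against 22108 and 22521 in cells with none, so these cells were not the deeper ones in this cluster in lean. The immediate early list in cluster 1 was 3911 CPM in lean cells with none and 4316 CPM in those with at least 5, and 5047 and 4968 CPM in obese. Over all cells the list was lower in the cells with at least 5, at 5389 and 4933 CPM in lean and 7167 and 6092 CPM in obese.

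Of the lists around these genes, HSP70 partners and other HSP70 family genes had 7 of 16 higher and 1 lower in the lean cells with at least 5. In obese, 1 was higher and 0 lower. Genes around heat shock factor had 3 of 9 higher and 1 lower in lean, and 1 of 7 higher and 1 lower in obese. The shares over all genes were 17.3% higher and 19.0% lower in lean and 5.06% and 8.87% in obese. The following 3 genes were picked after their values were seen. Hspb1, a small heat shock protein, had 124 UMIs in 17 lean cells and 8 UMIs in 8 obese cells. Its 4 highest lean cells held 111 of those UMIs, and 2 of these 4 cells had at least 5 Hspa1a and Hspa1b UMIs. In all, 71 UMIs lay in the 16 lean cells with at least 5 Hspa1a and Hspa1b UMIs. Dnaja1, an HSP70 J-domain partner, was 381 CPM in lean cells with none and 937 CPM in those with at least 5, against 386 and 379 CPM in obese. Bag3, a stress-induced HSP70 cofactor, was 4.99 and 23.9 CPM in lean and 4.96 and 17.3 CPM in obese, so it was higher in the HSP70-rich cells of both libraries. Its lean value in those cells rested on 7 UMIs, with a log2 ratio of 2.26 (0.92 to 3.35). Of the 14 genes of the chaperonin TRiC and its partner prefoldin, 0 were at least 1.5-fold higher and 0 lower in these cells in either library, against the shares just given.

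Single cells with Hspa1a held Hspa1b more often than cells without it, although most of them lacked it. After thinning to 2000 UMIs, Hspa1b was found in 46.7% (21.3 to 73.4) of the 15 lean cells with Hspa1a and in 0.648% of the lean cells without it. In obese it was found in 23.2% (13.0 to 36.4) of 56 cells with Hspa1a and in 2.55% of those without. Dnajb1 was found in 45.5% of lean cells with Hspa1b and 14.8% without, and in 37.3% and 19.9% in obese. Hsph1 was found in 8.55% of lean cells with Dnajb1 and 8.24% of those without, and in 7.42% and 8.49% in obese. The UMIs of the copies also divided differently, at 68.2 Hspa1b UMIs per 100 Hspa1a UMIs in lean and 129 in obese. Without the 10 highest cells of each library the order was the opposite, at 244 in lean (95 and 39 UMIs) and 124 in obese (481 and 387 UMIs), so it rested on those cells.

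By cell state, Hspa1b was 5.02 CPM in lean and 48.7 CPM in obese in cluster 0, 11.1 and 22.8 CPM in cluster 1, 2.89 and 12.4 CPM in cluster 2, 5.53 and 13.4 CPM in cluster 3 and 4.56 and 27.0 CPM in cluster 4. The obese value was the higher one in each of these 5 clusters as CPM. With each cell thinned to 2000 UMIs the order of mean UMIs per cell turned in cluster 3. There 8 Hspa1b UMIs were left in 625 lean cells and 3 in 306 obese cells, and 18 and 6 for Hspa1a. The thinned share of cells stayed higher in obese, with overlapping intervals. It was 0.64% in lean and 0.98% in obese for Hspa1b, and 0.96% and 1.31% for Hspa1a. No order is therefore read in cluster 3. In obese cluster 0, 10 of 714 cells held 73.3% of the Hspa1b UMIs, and 1 cell held 53 of 255. Hspa1a was 5.41 and 17.0 CPM in cluster 0, 19.1 and 23.2 CPM in cluster 1, 1.11 and 13.5 CPM in cluster 2 and 7.09 and 13.6 CPM in cluster 3, and in cluster 4 it had 0 UMIs in lean and 8 in obese. In lean the Hspa1a value was highest in cluster 1, with no overlap of intervals with the next cluster. However, 10 of its 476 lean cells held 97.2% of the 218 UMIs, and 1 cell held 79. The intervals are too narrow for such counts, so this is not read as a level of proliferating-like cells in general. In obese the Hspa1a intervals of neighbours in the order of clusters overlapped throughout.

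Without the 10 highest cells of each library the lean values for the summed copies were 4.64 CPM in cluster 0, 4.98 CPM in cluster 1, 4.001 CPM in cluster 2, 5.302 CPM in cluster 3 and 4.56 CPM in cluster 4. The obese values were 38.0, 31.9, 25.9, 19.8 and 36.3 CPM in the same order. Of the 10 lean cells left out 7 were in cluster 1, so a smaller gap between clusters was built into this choice, and the lean counts left were 4 to 56 UMIs per cluster. The log2 ratio of obese over lean ran from 1.90 (1.37 to 2.45) in cluster 3 to 3.03 (2.20 to 4.01) in cluster 0. A wider ratio was also built into this choice in clusters 0, 1 and 3, where cells were left out. No order of clusters or libraries is therefore read from these ratios. The immediate early list was higher in obese in each of the 5 clusters, with median log2 ratios from 0.34 in cluster 2 to 0.72 in cluster 3, and their part in the result was not tested.

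Counted at 1.5-fold, 2 members were higher in obese in cluster 0 (Hspa1a and Hspa1b, against 4.12% of all genes), 1 in cluster 1 (Hspa1b, against 2.13%), 3 in cluster 2 (Hspa1a, Hspa1b and Dnajb1, against 3.78%) and 2 in cluster 3 (Hspa1a and Hspa1b, against 6.10%). In cluster 4 the count was 3 of the 9 tested (Hspa1b, Dnajb1 and Hsph1), against 12.1%. None was 1.5-fold lower in obese in any of the 5 clusters, against 2.63%, 1.87%, 3.14%, 3.09% and 13.8% of all genes. In clusters 0, 2 and 3 both Hspa1a and Hspa1b passed 10 CPM through the obese library alone, as Hspa1b did in cluster 4. Their calls there were therefore largely fixed by the minimum, and nothing is read from those counts.

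**Figure D4:**
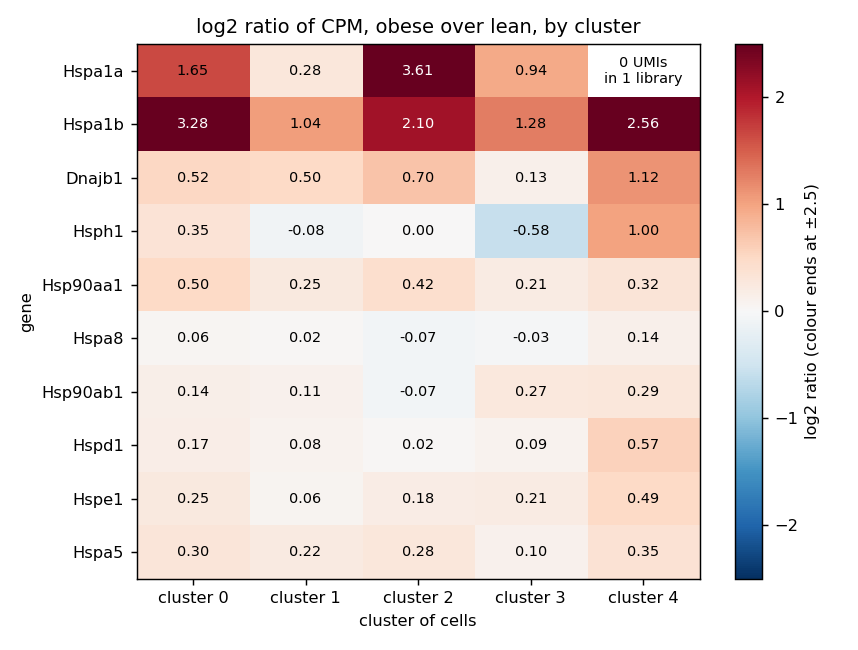
Each square gives the log2 ratio of CPM (obese over lean) of a chaperone (rows) in a cluster (columns), with red for higher in obese and blue for higher in lean. Hspa1a and Hspa1b rows are red throughout, from 0.28 to 3.61, with no ratio for Hspa1a in cluster 4 where lean had 0 UMIs, the constitutive and mitochondrial rows are pale in clusters 0 to 3, and Hsph1 runs from -0.58 in cluster 3 to 1.003 in cluster 4. Colour ends at 2.5 in either direction.

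Dnajb1 also differed by cell state. Of the named clusters it was highest in interferon-stimulated-like cells, at 112 CPM in lean and 160.3 CPM in obese, next in naive or memory-like cells, at 84.0 and 137 CPM, and lower in proliferating-like cells, at 60.5 and 85.7 CPM, and effector-like cells, at 69.4 and 76.2 CPM. Clusters 1 and 3 overlapped in their intervals in both libraries, and clusters 0 and 2 in obese. The log2 ratio ran from 0.13 (-0.06 to 0.33) in cluster 3 to 0.70 in cluster 2 among the 4 named clusters. In cluster 3 the thinned share of cells with Dnajb1 was 14.7% in lean and 10.1% in obese, which goes against the CPM, so no order is read there. Hsph1 had another pattern, with 22.4 and 22.5 CPM in cluster 2 and 54.1 and 51.3 CPM in cluster 1. In effector-like cells its CPM was lower in obese, at 51.3 in lean and 34.3 in obese (log2 ratio -0.58, -0.85 to -0.32). There the thinned shares of cells with Hsph1 were 8.96% in lean and 5.88% in obese, with overlapping intervals. In lean cluster 3, 10 cells held 17.3% of the Hsph1 UMIs.

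Hsp90aa1 was higher in obese in each of the 5 clusters, with log2 ratios from 0.21 in cluster 3 to 0.50 in cluster 0. In cluster 0 it was 379 CPM in lean and 536 CPM in obese, and in cluster 2 it was 338 and 453 CPM. Set against its constitutive partner, there were 29.1 Hsp90aa1 UMIs per 100 Hsp90ab1 UMIs in lean and 33.1 in obese. In cluster 0 the value was 31.0 (28.8 to 33.3) in lean and 39.8 (38.1 to 41.6) in obese. In cluster 2 it was 23.5 (22.2 to 24.9) in lean and 33.0 (31.2 to 35.0) in obese, and in cluster 3 it was 28.6 and 27.4, with overlapping intervals. The balance of the HSP90 forms thus shifted most in naive or memory-like cells and not detectably in effector-like cells, a difference between clusters that was not tested.

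Constitutive genes were highest in proliferating-like cells among the named clusters of both libraries. Hspa8 was 1966 CPM in lean and 1997 CPM in obese in cluster 1, against 1274 and 1325 CPM in cluster 0. The highest cluster was 1.54-fold over the lowest in both libraries, with cluster 0 lowest in lean and cluster 2 lowest in obese. Hsp90ab1 was 2299 and 2481 CPM in cluster 1 against 1221 and 1346 CPM in cluster 0. Between the libraries, Hspa8 kept within log2 ratios of -0.07 and 0.14 in clusters 0 to 4, and Hsp90ab1 within -0.07 and 0.29. In cluster 3 the log2 ratio of Hsp90ab1 was 0.27 (0.23 to 0.31), against 0.21 for Hsp90aa1. The difference by cell state was thus larger than the difference by library for both genes.

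Among the named clusters, the mitochondrial chaperones differed from each other in how far they varied by cell state. Hspd1 was 341 CPM in lean and 361 CPM in obese in proliferating-like cells, 172 and 183 CPM in effector-like cells, 116 and 118 CPM in naive or memory-like cells and 98.1 and 110.1 CPM in interferon-stimulated-like cells. This order was the same in both libraries, although the intervals of the lowest neighbours overlapped, and the highest cluster was 3.47-fold over the lowest in lean and 3.28-fold in obese. Hspe1 was 489 and 511 CPM in cluster 1, 400.5 and 455 CPM in cluster 2, 349.9 and 405 CPM in cluster 3 and 291 and 347 CPM in cluster 0. Over the 4 named clusters Hspe1 spanned 1.68-fold in lean and 1.47-fold in obese, less than Hsp90ab1 at 1.88-fold and 1.84-fold. With the shallow cluster 4 counted, Hspe1 spanned 3.76-fold in lean and 2.79-fold in obese, so the contrast with Hspd1 rested on leaving that cluster out. The UMIs of Hspd1 and Hspe1 did not keep a fixed ratio over the clusters. In lean and obese there were 69.7 and 70.7 Hspd1 UMIs per 100 Hspe1 UMIs in cluster 1 and 49.1 and 45.1 in cluster 3. The values were 33.7 and 31.8 in cluster 0, 29.0 and 25.9 in cluster 2 and 99.1 and 104 in cluster 4. The lean and obese values overlapped in their intervals in each of these clusters.

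Hspa5 was lowest in naive or memory-like cells, at 356 CPM in lean and 433 CPM in obese. It was 490.0 and 605 CPM in cluster 0, 459 and 536 CPM in cluster 1 and 468 and 502 CPM in cluster 3. The obese value was the higher one in each, with log2 ratios from 0.10 (0.03 to 0.17) in cluster 3 to 0.30 in cluster 0. The highest levels were in the shallow cluster 4, at 845 CPM in lean and 1079.6 CPM in obese, where Hsp90aa1 was also highest and Hspe1 lowest, at 129.99 and 183 CPM. Red cell markers reached 10751 CPM in the obese cells of cluster 4 and were at 0 in the lean ones, and their part in these levels was not tested.

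**Figure D5:**
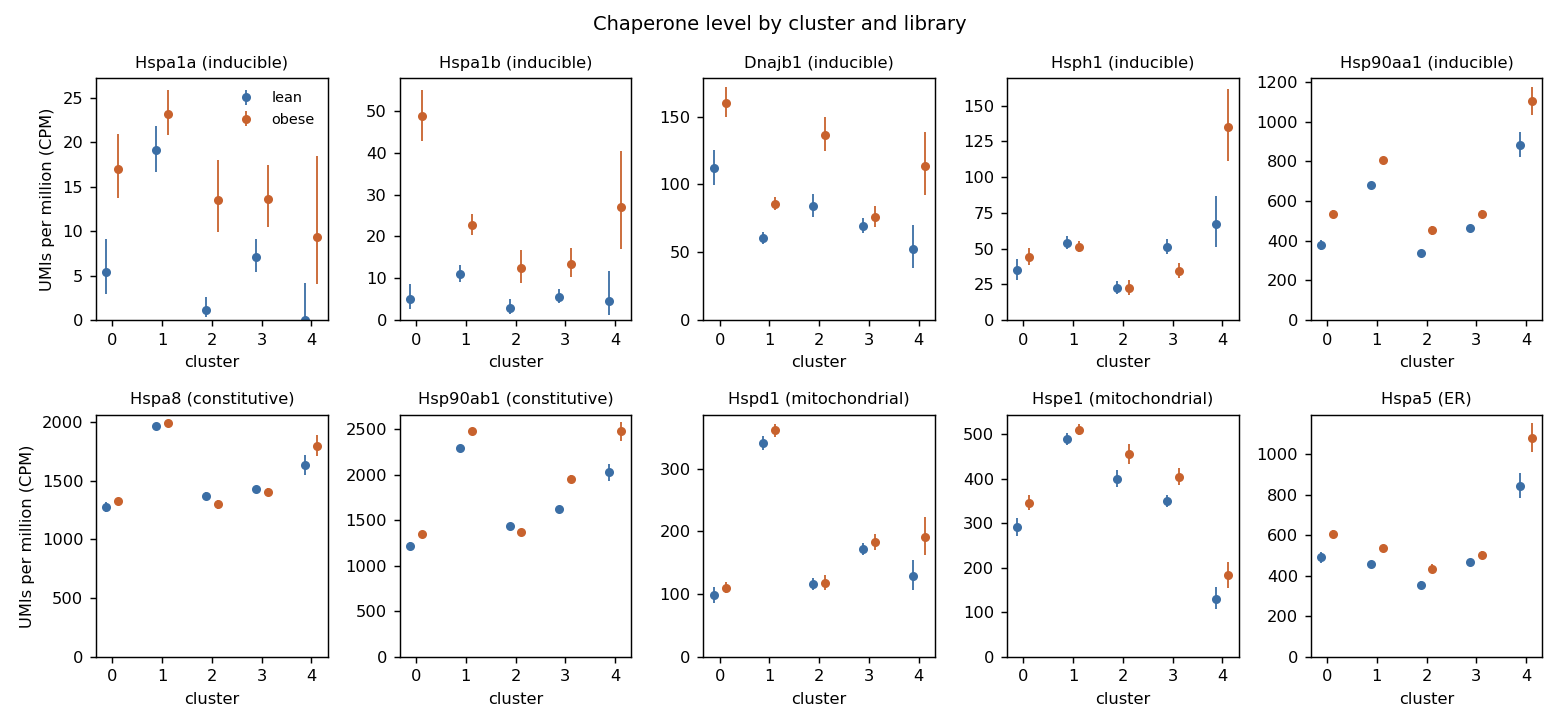
The level of each chaperone in CPM (y axis, from 0, own scale per gene) is plotted by cluster (x axis) for the lean (blue) and obese (orange) library, with exact Poisson 95% intervals. Hspd1, Hspa8 and Hsp90ab1 peak in cluster 1 in both libraries (Hsp90ab1 in obese nearly level with cluster 4), Dnajb1 peaks in cluster 0, and Hspa5 and Hsp90aa1 peak in cluster 4.

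Genes whose level followed a member over the 10 points of 5 clusters in 2 libraries were ranked by Pearson r among 2541 genes, as a description, since points of a library share depth and clusters share cells of like size. For Hspd1 they were Nifk (r = 0.98), Dtymk, Ybx1, Atp5b and Cks1b (r = 0.96). For Hspa5 they were B930036N10Rik (r = 0.98), Atf4, Sod1, Sec61a1 and Ppp3ca (r = 0.97). All 5 were highest in the shallow cluster 4, as was Hspa5. Atf4 was 507 CPM in lean and 743 CPM in obese there, and at most 199 CPM at the other points. How these genes follow Hspa5 without cluster 4 was not tested. For Hspa1a they were Gm16286 (r = 0.85), Snrpc, Pdcd6, Tuba4a and Ndufa12 (r = 0.84), a weaker likeness.

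The wider folding network was nearly level between the libraries, unlike the inducible HSP70 genes. Of the genes around heat shock factor, 6 of 11 passed 10 CPM, with a median log2 ratio of 0.08, Hsf1 (heat shock factor 1, 0.18) near the high end and Ubb (-0.10) and Hsbp1 (-0.07) lowest. Of HSP70 partners and other HSP70 family genes, 16 of 19 passed, with a median of 0.01. The family gene Hspa2 (0.56) and Dnajb4 (0.33) were highest and St13 (-0.18) and Stub1 (-0.17) lowest. Hspa2 passed through the obese library alone, at 8.92 CPM in lean and 13.1 CPM in obese. Of HSP90 cochaperones, all 10 passed, with a median of 0.06, Ppp5c and Ppid (0.19 each) highest and Sugt1 (-0.03) and Ahsa1 lowest. Ahsa1, the activator of the HSP90 ATPase, was 50.5 CPM in lean and 37.0 CPM in obese, a log2 ratio of -0.45 (-0.57 to -0.34), opposite in sign to Hsp90aa1.

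Of TRiC and prefoldin, all 14 passed, with a median of 0.09, Pfdn6 (0.22) and Tcp1 (0.17) highest and Cct6a and Pfdn5 (-0.11) lowest. Cct6a, a TRiC subunit, was 1025 CPM in lean and 762 CPM in obese (log2 ratio -0.43, -0.45 to -0.40), and it was the lowest of this list in clusters 0 to 4 as well. Of the other mitochondrial chaperones and proteases, all 8 passed, with a median of -0.01 between Grpel1 (-0.11) and Clpp (-0.07) at the low end and Trap1 (0.07) and Hspa9 (0.14) at the high end. Of the other endoplasmic reticulum chaperones, listed with genes of degradation and of the stress response, all 18 passed, with a median of -0.05. Calr (0.36) and Dnajb9 (0.35) were highest and Edem1 (-0.20) and Pdia4 (-0.17) lowest. None of these genes was 1.5-fold higher or lower in obese, against 1.66% and 1.32% of all genes.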

How the data were processed

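CD8+ TIL from lean and obese mice were profiled with the 10x Genomics 3′ kit, 1 library per phenotype. The authors deposited raw UMI counts per gene and cell, made with Cell Ranger 6.0.2 on build mm10 per the submitters' processing notes. The annotation release was not given in the sources used here. The deposited tables hold no columns of comparisons.

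Cells with under 7.5% mitochondrial UMIs and over 500 and under 50000 UMIs were kept, which left out 241 lean and 334 obese cells and kept 27815785 lean and 28705830 obese UMIs. UMIs were summed per library or cluster and given as CPM with exact Poisson intervals, and ratios were given with exact conditional binomial intervals (mean ratios by the delta method). Shares used exact Clopper-Pearson intervals. All intervals and floors cover counting error only. Cells were clustered in Seurat 5.3.0 (R 4.3.3) on 1965 variable genes with the chaperone and immediate early lists left out, at resolution 0.15, and clusters with at least 50 cells in each library were used. Scrublet (scanpy 1.11.5) called 3 of 4745 cells as doublets and so did not work, and no doublets were removed. TMM factors came from edgeR 4.0.16, with no edgeR test. Other steps used Python 3.11.15 with scipy 1.17.1. The interval, ratio and thinning steps were tested on simulated data.

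Named genes were the 10 members, the 2 highest and 2 lowest genes of each pathway list, and the 5 genes most like Hspa1a, Hspd1 and Hspa5. Hspb1, Dnaja1 and Bag3 fall outside this rule and were chosen after their values were seen. Some genes that the rule or the marker lists name are not reported here. The members and lists were chosen with earlier results of these data known. Alternatives were TMM scaling, leaving genes of the ribosome and the mitochondrial genome out of the totals, averaging CPM of single cells, thinning, other cell filters, equal cluster weights, other clusterings and class definitions.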

Additional observations from a re-analysis of the deposited data

Results flagged for a closer look

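The log2 ratio of obese over lean had opposite signs in different clusters for 3 members, and these differences were not tested, since each cluster has 1 library per diet. Hsph1 was 1.003 in cluster 4 and -0.58 in cluster 3. Hspa8 was 0.14 in cluster 4 and -0.07 in cluster 2. Hsp90ab1 was 0.29 in cluster 4 and -0.07 in cluster 2. Cluster 4 is the shallow cluster, at 29.0% of the lean and 25.1% of the obese median depth.

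Signal was also present in cells that the filters left out, where lean served as the control. Among cells with a mitochondrial share of 7.5% or more (158 lean and 213 obese), Hsph1 was 56.6 CPM in lean and 122.7 CPM in obese. Among cells with 50000 UMIs or more (83 lean and 121 obese), Hspa1a was 6.61 CPM in lean and 28.8 CPM in obese, and Hspa1b was 5.04 CPM in lean and 21.1 CPM in obese.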

How the results depend on the processing

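Over all cells, the obese library had the higher inducible mean under each alternative run, and the log2 ratios of Hspa1a (0.65 to 3.27), Hspa1b (1.69 to 2.30), Dnajb1 (0.49 to 0.65) and Hsp90aa1 (0.28 to 0.39) kept their sign. With TMM factors the constitutive mean was 0.047, the mitochondrial mean 0.10, Hspa5 0.21 and Hspa8 -0.0044, below 0. As a mean over cells the inducible mean was 0.86, the constitutive mean 0.073 and their gap 0.79. Thinned to 2000 UMIs the constitutive mean was 0.036 and the gap 0.71, and the lowest cluster mean of the inducible genes with the paralogs summed was -0.38, in cluster 3. Thinned to 1000 UMIs the values were 0.82 inducible, 0.067 constitutive, 0.11 mitochondrial, 0.30 for Hspa5 and 0.75 for the gap. With all deposited cells they were 0.14 constitutive, 0.26 mitochondrial and 0.20 for Hspa5. With equal weight of clusters they were 0.91 inducible, 0.18 mitochondrial and 0.82 for the gap. Without Hsp90aa1 the inducible mean was 0.78 and the gap 0.69, and with Hspa1a and Hspa1b summed they were 0.53 and 0.44. Without the 10 cells of each library with the most Hspa1a and Hspa1b UMIs, chosen after seeing the data, they were 1.30 and 1.21. The increase was built into that choice of cells. The cause of these changes was not tested. Counting genes at least 25% higher or 20% lower in obese, in place of 1.5-fold, 8.13% of genes were higher and 4.11% lower, and 4 members were higher and 0 lower. With 1 UMI in each library as the minimum, 11.5% of genes were higher and 8.78% lower at 1.5-fold.

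No paired analysis was possible because each diet is 1 library. With 1 library per diet there is no replicate to leave out. Depth limits Hspa1a and Hspa1b most, since lean held 296 and 202 of their UMIs in all, in few cells, and cluster 4 held 0 and 4.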

Other observations

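Among cells with a mitochondrial share of 7.5% or more, Hspa1a was 59.5 CPM in lean (20 UMIs) and 13.3 CPM in obese (8 UMIs), the opposite direction to the kept cells, and Hspa1b was 44.6 CPM in lean and 21.6 CPM in obese. Among cells with 50000 UMIs or more, Hspa5 was 556 CPM in lean and 532 CPM in obese.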
